A study of Mus musculus with 14 samples.

Results

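The regulators of mitochondrial biogenesis were followed in C2C12 cells, mouse myoblasts grown as a line that form myotubes once serum is lowered, after control siRNA or siRNA against Klf5. The group held 10 genes of the 24016 listed in the deposited expression table, namely the coactivators Ppargc1a, Ppargc1b and Pprc1, the nuclear receptors Esrra, Esrrg and Ppard, the transcription factors Nrf1 and Gabpa, and the mitochondrial factors Tfam and Tfb2m. Each was taken by its gene symbol. Cells had been transfected with a control siRNA (siCtrl) or a pool of siRNAs to Klf5 (siKlf5) with a lipid reagent. Poly(A) RNA was taken at day 0 and after 1, 2 and 3 days of differentiation in medium with horse serum, and each siRNA had 1 library at each of these 4 times, 8 libraries in all. The knockdown was transient, the control siRNA is described no further in the labels, and the line's identity was not authenticated by the authors. Nothing in the sources tells whether the libraries came from separate cultures, so the p-values below measure the spread between these libraries only. ChIP-seq from the same study was not analysed here.

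Mitochondrial mass is set in part by nuclear genes. PGC-1α (Ppargc1a), PGC-1β (Ppargc1b) and PRC (Pprc1) do not bind DNA themselves and instead coactivate factors that do, among them the estrogen-related receptors ERRα (Esrra) and ERRγ (Esrrg), PPARδ (Ppard), NRF1 and the DNA-binding GABP subunit encoded by Gabpa. Those factors act on nuclear genes for respiratory chain subunits and on Tfam and Tfb2m, whose products enter the organelle and serve the transcription of mitochondrial DNA. In skeletal muscle PGC-1α and the ERRs are known for oxidative fibres and endurance training, and Klf5 is a DNA-binding protein of the Krüppel-like family with zinc fingers that prefer GC-rich elements.

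The promoters of the 4 regulators called lower on day 3 than on day 0 (below) are shown as the stretch before the start of transcription. They were picked for that call, which 3 of them lost under some settings, and whether they share a course was not tested. Each line gives the 250 bases upstream of the RefSeq start of the gene (the most upstream of 2 listed starts for Nrf1) on the GRCm38.p6 build, 5′ to 3′ along the gene's strand. Capitals mark every match, on either strand, to GCATGCG (the core of the NRF1 element), CCGGAAG (an ETS site of the kind GABP binds), AAGGTCA (the ERR half-site), GGGCGGG (the GC box), CACCC (the core of the CACCC box bound by Klf proteins) or CAGCTG (an E-box of the kind MyoD binds).
Pprc1, chr19:46056289-46056538, plus strand: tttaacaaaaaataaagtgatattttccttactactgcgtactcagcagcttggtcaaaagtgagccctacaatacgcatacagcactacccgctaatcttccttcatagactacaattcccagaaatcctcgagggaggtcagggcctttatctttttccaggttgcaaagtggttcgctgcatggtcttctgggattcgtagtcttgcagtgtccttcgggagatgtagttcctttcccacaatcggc
Tfam, chr10:71238045-71238294, minus strand: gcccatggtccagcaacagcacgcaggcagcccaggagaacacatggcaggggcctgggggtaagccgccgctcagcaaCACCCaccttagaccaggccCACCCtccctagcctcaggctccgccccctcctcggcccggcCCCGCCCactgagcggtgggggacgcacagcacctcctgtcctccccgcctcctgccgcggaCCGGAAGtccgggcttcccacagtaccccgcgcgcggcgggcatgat
Nrf1, chr6:30047738-30047987, plus strand: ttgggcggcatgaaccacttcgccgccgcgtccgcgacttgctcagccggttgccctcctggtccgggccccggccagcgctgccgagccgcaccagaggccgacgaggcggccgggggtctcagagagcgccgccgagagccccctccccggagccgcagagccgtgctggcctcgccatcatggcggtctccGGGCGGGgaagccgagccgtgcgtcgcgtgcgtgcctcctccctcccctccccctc
Ppard, chr17:28232504-28232753, plus strand: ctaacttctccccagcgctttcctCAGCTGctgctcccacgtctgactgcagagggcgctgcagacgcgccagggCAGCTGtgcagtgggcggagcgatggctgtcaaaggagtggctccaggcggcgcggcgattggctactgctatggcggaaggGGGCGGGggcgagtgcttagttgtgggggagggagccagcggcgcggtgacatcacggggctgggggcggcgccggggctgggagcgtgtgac
In the Tfam window stood CACCC at positions -171 and -151, a GC box at -109 and CCGGAAG at -47, counted from the start of transcription. The Nrf1 window held a GC box at -56, the Ppard window E-boxes at -226 and -175 and a GC box at -93, and the Pprc1 window none of these letters. A GC box was found in 23.4% of the 32851 RefSeq windows of this length, CACCC in 52%, CAGCTG in 13%, CCGGAAG in 6.91%, AAGGTCA in 4.08% and GCATGCG in 3.02%. Most windows not shown held such letters as well. That of Esrra had 2 matches of CACCC, 1 GC box and a match of GCATGCG at -34. That of Esrrg, a gene with 4 listed starts of which 1 was used, had 3 matches of CACCC, that of Tfb2m 2 GC boxes and 1 match of CACCC. That of Gabpa had a match of CCGGAAG at -93, overlapping matches of GCATGCG at -8 and -7, and 1 match of CACCC. That of Ppargc1a had none of the motifs searched. GC boxes or CACCC thus stood in the windows of regulators on either side of the call, though not in every window. GC content was 72% for Tfam, 76% for Nrf1, 69.6% for Ppard and 45.2% for Pprc1, against a median of 52.4% over all windows. In the windows not shown it was 69.2% for Tfb2m, 68.4% for Esrra, 59.6% for Gabpa, 50.8% for Esrrg and 48% for Ppargc1a. The motifs can overlap, a match is a stretch of letters and not a shown binding site, and windows were found for 9 of the 10 genes.

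Levels are given as FPKM, reads per kilobase of exon, in the scale of the authors, who set each library's total over the gene matrix to 10000000, so that values exceed the FPKM of other scales. FPKM is per length, so that levels may be set side by side between genes, but at most 3 reads were kept per position, which holds down the levels of abundant genes, more so in deeply sequenced libraries. The reads behind each value were recovered from the steps of the low values, and summed to 12178833, 7850497, 20301506 and 12366627 in the siCtrl libraries of days 0 to 3 and to 11136799, 8119452, 11808641 and 10864084 in the siKlf5 libraries. Ordered by mean FPKM over the 8 libraries, Esrra was highest (218.3), followed by Gabpa (179.9), Ppard (153.5), Pprc1 (127.1), Tfb2m (120.4), Tfam (105.8), Nrf1 (88.8), Ppargc1b (38.5), Ppargc1a (5.44) and Esrrg (0.998). The ranges over the libraries overlapped for every neighbouring pair from Esrra down to Nrf1. They did not overlap between Nrf1 and Ppargc1b, between Ppargc1b and Ppargc1a, or between Ppargc1a and Esrrg. A mean FPKM of at least 1 over the libraries was required for testing, which 14312 transcripts and 9 of the 10 regulators met, and Esrrg lay just under that limit.

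**Figure D1:**
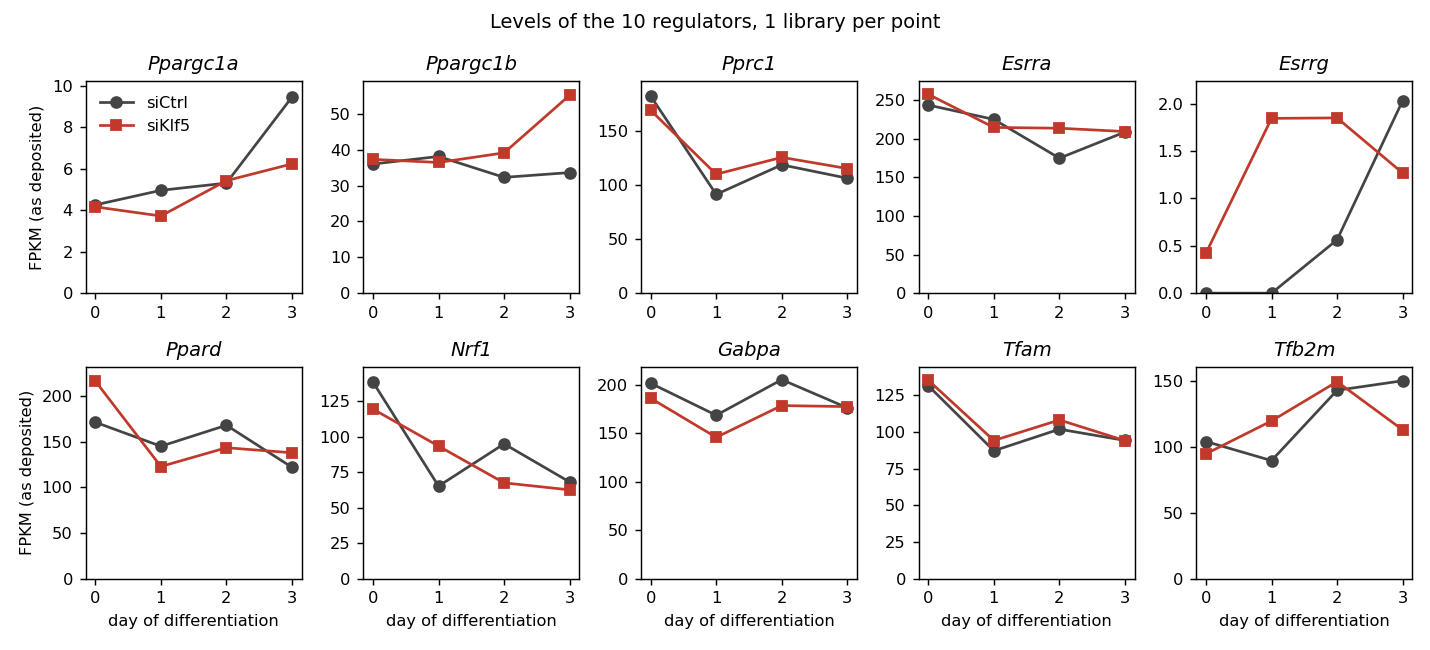
FPKM as deposited (vertical axis, from 0, with its own scale for each gene) against day of differentiation for the 10 regulators, with circles for siCtrl and squares for siKlf5 and 1 library per point. Pprc1, Tfam, Nrf1, Esrra and Ppard were highest on day 0 in both siRNAs, and the siKlf5 library of day 3 stood apart for Ppargc1b at 55.2 FPKM. How many of all transcripts were highest on day 0 in both siRNAs was not counted.

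The first comparison asked whether the regulators differed between siKlf5 and siCtrl cells, on average over the course. Klf5 RNA itself was lower in the siKlf5 library on every day, with 223.8, 381.1, 614.4 and 933.1 FPKM in siCtrl and 35.1, 159.6, 192.1 and 211.4 FPKM in siKlf5 on days 0 to 3. None of the 9 tested regulators was called different between the siRNAs, and none had an unadjusted p below 0.05. Their mean differences (siKlf5 minus siCtrl, log2 of FPKM + 0.1) lay between -0.25 for Ppargc1a and 0.24 for Ppargc1b, with 5 above and 4 below 0 and a median of 0.01, the same as that of all tested transcripts (0.01).

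The test was limma on log2(FPKM + 0.1) with day as a block, which takes the departures of the 4 daily differences from their mean as the error (3 residual degrees of freedom), with Benjamini-Hochberg adjustment over 14312 transcripts. It called 9 transcripts, 0.0629% of those tested, 8 lower and 1 higher, and Klf5 was one of them (log2 -1.94, 95% interval -2.40 to -1.47, adjusted p = 0.0244). Of all transcripts 1374 had an unadjusted p below 0.05, and Klf5 itself was not called when any 1 day was left out or without a filter on low values (below). The intervals are for the mean difference over the 4 days of each regulator, and do not bound a difference on a single day. They were narrowest for Gabpa (-0.32 to 0.06), Esrra (-0.13 to 0.28) and Tfam (-0.16 to 0.28), of middle width for Pprc1 (-0.14 to 0.32), Ppard (-0.27 to 0.29) and Tfb2m (-0.34 to 0.31), and wider for Nrf1 (-0.47 to 0.31), Ppargc1b (-0.21 to 0.70) and Ppargc1a (-1.33 to 0.83). Whether the siRNA difference moved in a straight line over days 0 to 3 was also fitted, and 0 of the 9 regulators and 0 of 14312 transcripts (0%) were called by limma, with 0 and 694 at an unadjusted p below 0.05.

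**Figure D2:**
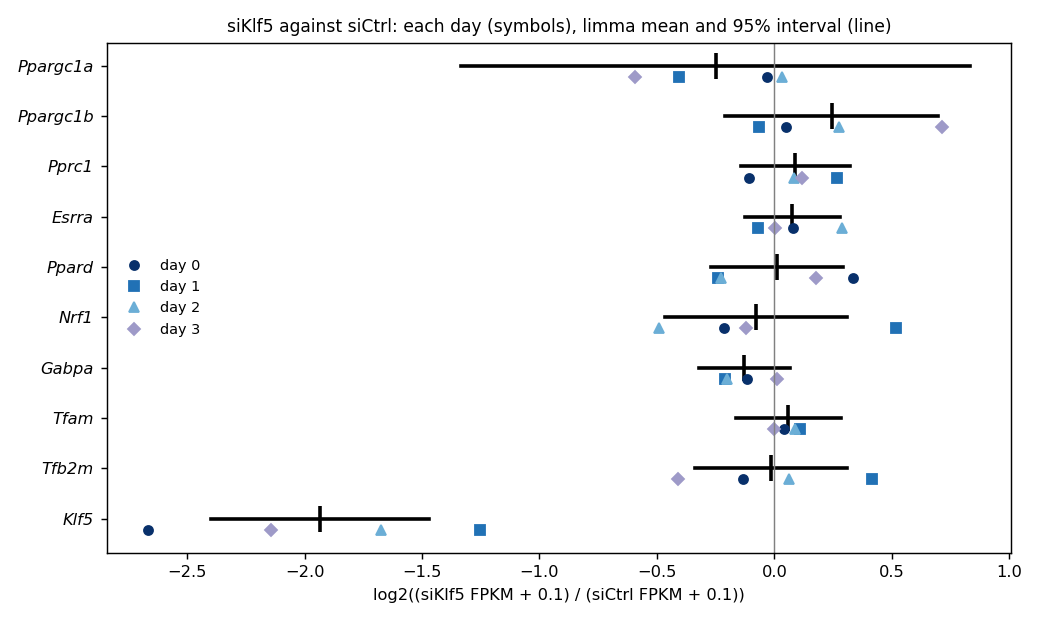
Difference between siKlf5 and siCtrl on the log2 scale (horizontal axis) for the 9 tested regulators and Klf5, with a symbol for each day and a line for the limma mean and its 95% interval. The intervals of all 9 regulators span 0, and that of Klf5 runs from -2.40 to -1.47.

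Single days were set side by side without a test, since each siRNA has 1 library per day. Exact (Clopper-Pearson) 95% intervals of each ratio were taken on reads divided by 6, because reads came in groups of about that number, and they cover counting error only. They excluded 0 for 1, 0, 2 and 2 of the 9 regulators on days 0, 1, 2 and 3, and for 9.53%, 12.8%, 17.5% and 13.8% of all tested transcripts. On days 0, 1 and 2 none of the 9 regulators was past 1.5-fold, where 20.4%, 27.4% and 20.7% of all tested transcripts were. On day 3 Ppargc1b was past 1.5-fold higher and Ppargc1a past 1.5-fold lower in siKlf5, beside 10.7% of all transcripts higher and 12.5% lower on that day.

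Among the coactivators Ppargc1a, the exercise-induced member of the family, lies on mm9 chr5:51845488-51945160 and was scarce in these cells. Its FPKM was 4.26, 4.96, 5.31 and 9.46 in siCtrl on days 0 to 3 and 4.16, 3.72, 5.42 and 6.23 in siKlf5. The highest value in either siRNA was thus that of day 3, 2.19-fold the day 0 value in siCtrl and 1.49-fold in siKlf5, and the 2 siRNAs overlapped. These values rest on 32 to 125 reads per library, and the change from day 0 to day 3 over both siRNAs was not called by limma (log2 0.85, interval -0.68 to 2.39, adjusted p = 0.375). On day 3 the siKlf5 value was 1.51-fold lower than that of siCtrl, with a counting interval of -1.78 to 0.47 on the log2 scale that includes 0.

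Ppargc1b, the paralogue that is less tied to exercise, lies on mm9 chr18:61457790-61560085. It was at 36.0, 38.1, 32.3 and 33.6 FPKM in siCtrl and at 37.3, 36.4, 39.1 and 55.2 FPKM in siKlf5 on days 0 to 3. The 7 other libraries lay within 32.3 to 39.1 FPKM, and the siKlf5 library of day 3 stood above them all. That value was 1.64-fold the siCtrl value of the same day, with a counting interval of 0.11 to 1.31 on the log2 scale. Neither the mean difference between siRNAs (log2 0.24, adjusted p = 0.721) nor its slope over days (0.23 per day, interval -0.17 to 0.63, adjusted p = 0.9995) was called by limma.

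Pprc1 (mm9 chr19:46131029-46147399), which encodes the serum-responsive member of the coactivator family, had the clearest course. It fell from day 0 to day 1 in both siRNAs and stayed below its starting level. FPKM was 181.9, 91.1, 118.4 and 106.1 in siCtrl and 168.8, 109.7, 125.4 and 115.0 in siKlf5 on days 0 to 3. Both day 0 libraries lay above all 6 later libraries. The share of all transcripts with day 0 so set apart was not counted, here or for the regulators below. Against day 0 the fold over both siRNAs was 0.571 on day 1 (log2 -0.81, limma adjusted p = 0.00813), 0.696 on day 2 (log2 -0.52, adjusted p = 0.0328) and 0.631 on day 3 (log2 -0.67, adjusted p = 0.00989). Without the trend and without the filter the calls of day 1 (limma adjusted p = 0.0585 and 0.0573) and day 2 (0.0904 and 0.0918) were lost. On day 3 each siRNA alone gave 0.584 (siCtrl) and 0.682 (siKlf5).

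Of the nuclear receptors Esrra (mm9 chr19:6985467-6996298), a main partner of PGC-1α on respiratory chain genes, was the most abundant regulator of the group. Its FPKM was 243.6, 224.9, 174.8 and 208.6 in siCtrl and 257.4, 214.6, 213.5 and 209.3 in siKlf5 on days 0 to 3. The day 0 libraries were the 2 highest, and the later ones were lower by amounts that limma did not call (day 3 against day 0, log2 -0.26, interval -0.55 to 0.03, adjusted p = 0.152). Esrrg (mm9 chr1:189821706-190038763), the receptor of oxidative muscle and heart, was listed at 0, 0, 0.563 and 2.03 FPKM in siCtrl and at 0.423, 1.85, 1.85 and 1.27 FPKM in siKlf5. At most 22 reads stood behind a value, a count of 0 allows up to 3 such groups of about 6 reads, and the order of the libraries was not resolved at this depth. The ranges of the siRNAs overlapped, and no fold is given.

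Ppard (mm9 chr17:28369699-28438414), the PPAR of fatty acid oxidation in muscle, was at 171.4, 145.1, 168.1 and 122.1 FPKM in siCtrl and at 216.5, 122.9, 143.5 and 138.0 FPKM in siKlf5 on days 0 to 3. The highest value was that of siKlf5 on day 0, which was 1.26-fold that of siCtrl (counting interval 0.04 to 0.63 on the log2 scale), and on days 1 and 2 siKlf5 was instead the lower of the pair. Over both siRNAs Ppard fell to 0.674 of the day 0 level on day 3 (log2 -0.57, limma adjusted p = 0.0391), a call that was lost in 4 of 7 other fits (limma adjusted p = 0.0798 to 0.198). The siKlf5 libraries gave 0.638 and the siCtrl libraries 0.712. The decrease on day 1 (log2 -0.53, adjusted p = 0.0752) was not called.

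Nrf1 (mm9 chr6:29997988-30095197) encodes nuclear respiratory factor 1, an activator of many nuclear genes for the respiratory chain and of Tfam. It was at 138.6, 65.3, 95.1 and 68.2 FPKM in siCtrl and at 119.6, 93.5, 67.6 and 62.7 FPKM in siKlf5 on days 0 to 3, so that both day 0 libraries lay above all later ones. By day 3 it had fallen to 0.508 of the day 0 level over both siRNAs (log2 -0.98, interval -1.53 to -0.43, limma adjusted p = 0.0173), the largest decrease among the 9 tested regulators, with 0.493 in siCtrl and 0.525 in siKlf5. This call was lost without the trend of the fit (adjusted p = 0.0831) and without the filter on low values (adjusted p = 0.15). The siRNAs crossed in between. On day 1 the siKlf5 value was 1.43-fold that of siCtrl (counting interval -0.13 to 1.26 on the log2 scale), and on day 2 it was 1.41-fold lower (-1.02 to -0.02). Day 1 and day 2 against day 0 were not called (adjusted p = 0.0793 and 0.0761).

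Gabpa (mm9 chr16:84835369-84864023), the ETS-domain subunit of GABP, spanned 1.41-fold over the 8 libraries. FPKM was 201.5, 168.6, 205.2 and 176.2 in siCtrl and 186.1, 145.8, 178.5 and 177.5 in siKlf5 on days 0 to 3. The lowest value of each siRNA was that of day 1, and siKlf5 was the lower of the pair on days 0, 1 and 2 but not on day 3. Neither the siRNA difference (log2 -0.13, limma adjusted p = 0.653) nor any day against day 0 was called, with adjusted p of 0.123, 0.946 and 0.447 on days 1 to 3.

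Tfam (mm9 chr10:70688225-70700792) encodes the factor that packages mitochondrial DNA and opens its promoters. It fell after day 0 in both siRNAs with nearly the same values. FPKM was 131.5, 87.2, 101.9 and 94.2 in siCtrl and 135.2, 94.2, 108.2 and 94.1 in siKlf5 on days 0 to 3, and the day 0 libraries lay above all 6 others. The fold against day 0 over both siRNAs was 0.68 on day 1 (log2 -0.56, limma adjusted p = 0.0293), 0.788 on day 2 (log2 -0.34, adjusted p = 0.111, not called) and 0.707 on day 3 (log2 -0.50, adjusted p = 0.0269). The call of day 1 was lost in 3 of 7 other fits (limma adjusted p = 0.0643 to 0.078) and that of day 3 in 2 (0.0552 and 0.0649). Each siRNA alone gave 0.717 (siCtrl) and 0.697 (siKlf5) on day 3. The daily differences between siRNAs had the smallest spread of the 10 regulators, an SD of 0.05 on the log2 scale over the 4 days.

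Tfb2m (mm9 chr1:181458187-181476398), whose product helps the mitochondrial RNA polymerase to start, did not follow Tfam. FPKM was 104.0, 89.6, 142.9 and 150.1 in siCtrl and 94.7, 119.6, 149.4 and 112.9 in siKlf5 on days 0 to 3. Both day 2 libraries lay above both day 0 libraries, but the change was not called (log2 0.56, limma adjusted p = 0.0807 on day 2 and log2 0.39, adjusted p = 0.178 on day 3). On day 3 the siKlf5 value was 1.33-fold lower than that of siCtrl (counting interval -0.84 to -0.01 on the log2 scale), and on day 1 it was 1.34-fold higher (-0.14 to 0.99).

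Across the group, the second comparison asked how the regulators moved during differentiation. It used the same limma fit, in which the siCtrl and siKlf5 libraries of a day stood in for replicates. A siRNA difference that changes with day thus counted as error, and no spread between replicates of a condition was measured. On day 3 against day 0, Nrf1, Pprc1, Ppard and Tfam fell and none of the 9 rose, where 17.6% of all tested transcripts fell and 12.8% rose. On day 1 Pprc1 and Tfam fell (2 of 9, beside 9.93% of all transcripts), on day 2 Pprc1 alone (1 of 9, beside 11.6%), and none rose on either day (6.82% and 11.5% of all transcripts rose). The median of the regulators was -0.30, -0.31 and -0.26 on the log2 scale on days 1, 2 and 3, and that of all tested transcripts -0.09, -0.02 and -0.09. Centring the libraries on median ratios raised day 1 and day 3 differences by 0.11 for all transcripts, after which the regulators' median was -0.15 on day 3. Nrf1 and Pprc1 were then still called on day 3, whereas Ppard (log2 -0.46, limma adjusted p = 0.0863) and Tfam (log2 -0.39, adjusted p = 0.0649) were not, and upper-quartile scaling gave the same 2 calls. Of all transcripts 12.8% were called lower on day 3 after centring and 13.5% with upper-quartile scaling. Without the trend or without the filter, Pprc1 and Tfam were called on day 3 but Nrf1 and Ppard were not, beside 9.54% and 5.23% of all transcripts lower. Pprc1 alone was thus called on day 3 in every fit tried. Centring on median ratios shifted the whole transcriptome's split of calls from 1831 higher and 2516 lower on day 3 to 2173 and 1828, and from 976 and 1421 on day 1 to 1195 and 976 (1266 and 897 with upper-quartile scaling). Each day had 1 library of each siRNA, so that day cannot be told apart from anything else that the libraries of a day may share. The day 1 libraries had the fewest reads (7850497 in siCtrl and 8119452 in siKlf5), and the part of depth in the day 1 changes was not tested.

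**Figure D3:**
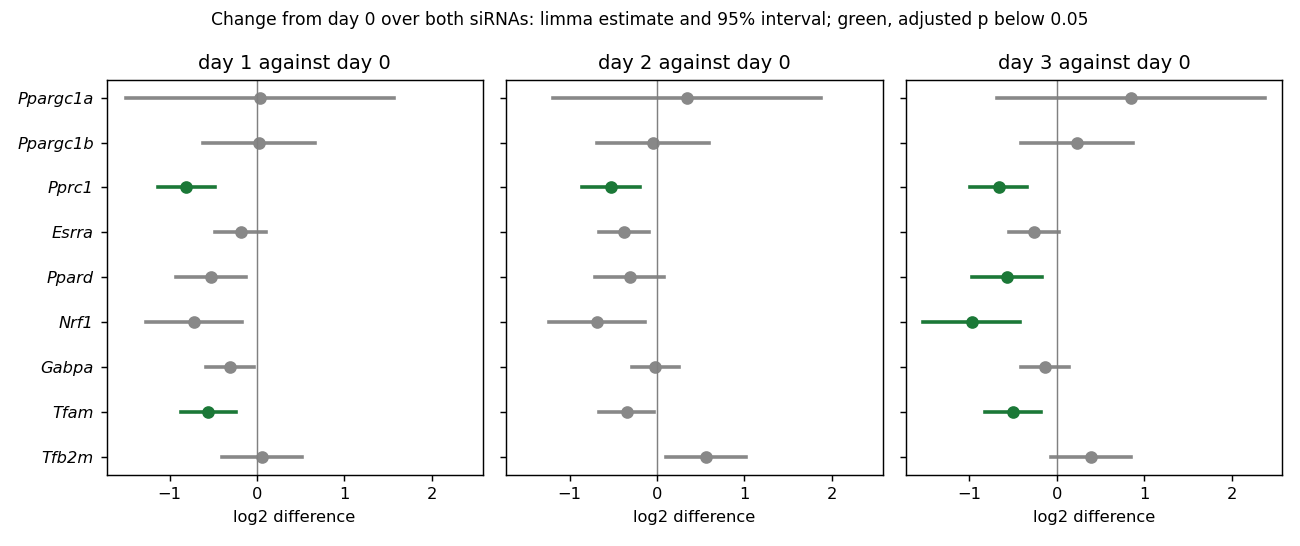
Difference from day 0 on days 1, 2 and 3 on the log2 scale (horizontal axis) over both siRNAs for the 9 tested regulators, as limma estimates with 95% intervals, green where the adjusted p was below 0.05. Pprc1 is green in all panels, Tfam on days 1 and 3, and Nrf1 and Ppard on day 3, all to the left of 0.

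Within each siRNA, the same values can be read without a test. Past 1.5-fold below day 0 in siCtrl were Pprc1, Nrf1 and Tfam on day 1, Pprc1 on day 2, and Pprc1 and Nrf1 on day 3, where 22.8%, 18.1% and 23.5% of all tested transcripts were lower by as much. In siKlf5 they were Pprc1 and Ppard on day 1, and Nrf1 and Ppard on days 2 and 3, beside 19.8%, 20.2% and 23.6% of all transcripts. Higher by 1.5-fold on the deposited scale were Ppargc1a on day 3 in siCtrl and Tfb2m on day 2 in siKlf5, beside 15.4%, 22.9% and 22.5% of all transcripts in siCtrl and 18.2%, 21.3% and 21.7% in siKlf5 on days 1 to 3. Under either scaling Tfb2m in siCtrl and Ppargc1a and Ppargc1b in siKlf5 were also past 1.5-fold higher on day 3. That made 2 of 9 in each siRNA. Of all transcripts 25.3% (median ratios) and 24.3% (upper quartile) were higher by as much in siCtrl, and 24.9% and 24.8% in siKlf5. Those no longer past it below day 0 were Tfam on day 1 in siCtrl, and in siKlf5 Pprc1 on day 1 and Ppard on days 2 and 3.

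RNA of muscle and cell division markers changed over the same days. Of 8 muscle cell markers, 6 rose from day 0 to day 3 and none fell, among them Ckm (53.3-fold, limma adjusted p = 5.783e-07) and Myh3 (27.4-fold, adjusted p = 5.783e-07), which encode muscle creatine kinase and embryonic myosin heavy chain. Their summed FPKM went from 3295 to 16390 in siCtrl and from 2765 to 15650 in siKlf5, with Acta1 the most abundant (sums of such abundant genes are limited by the cap on reads per position), and the myoblast factor Myod1 had a mean of 493.3 FPKM. All 6 cell division markers fell, with Ccnb1 at 0.285 and Cdk1 at 0.351 of the day 0 level, and their summed FPKM went from 3343 to 1187 in siCtrl and from 3627 to 1445 in siKlf5. The lower levels of Pprc1, Nrf1, Ppard and Tfam thus came with lower division markers and higher muscle markers, and the part of these in the result was not tested. In such bulk RNA fewer cells of a type and less RNA per cell cannot be told apart. Adipocyte markers summed to at most 4.74 FPKM in any library, with Adipoq the most abundant and Plin1 and Lep at 0 throughout, and 6 leukocyte and endothelial markers to between 3.25 and 25.8 FPKM, with Cd68 the most abundant and none at 0 in all libraries.

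Genes around the regulators were then counted by function, for day 3 against day 0 and with the same fit, to be read beside the 17.6% of all tested transcripts that fell and the 12.8% that rose. Of 10 genes for protein import into mitochondria and for mitochondrial chaperones, 7 fell and none rose, with a list median of -0.60 against -0.09 for all transcripts. The chaperonins Hspd1 (0.402 of day 0, adjusted p = 0.0002205) and Hspe1 (0.471, adjusted p = 0.000333) and the outer membrane pore Tomm40 (0.48, adjusted p = 0.000267) were among them, as was the import motor Hspa9 (0.552, adjusted p = 0.00342). With centring on median ratios 5 of these 10 fell, and their median was -0.49, beside 12.8% of all transcripts lower and a median of 0.01 in that fit. Without the trend 4 of them fell (9.54% of all transcripts) and without the filter 3 (5.23%).

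Of 13 respiratory chain and Krebs cycle genes, the classical targets of NRF1, GABP and ERRα, 4 fell and none rose (median -0.14). Cytochrome c (Cycs, 0.614 of day 0, limma adjusted p = 0.00571), Idh3a (0.634, adjusted p = 0.00321), Mdh2 (0.782, adjusted p = 0.0417) and citrate synthase (Cs, 0.798, adjusted p = 0.049) were those called, and 2 of the 13 were called lower after centring (12.8% of all transcripts). Without the trend or without the filter 1 of the 13 was called lower, beside 9.54% and 5.23% of all transcripts, and 1 of 13 is no larger a share than that of all transcripts without the trend. Sdha of complex II (adjusted p = 0.533) and Ndufs1 of complex I (adjusted p = 0.86) were not. Among 19 genes for transcription and upkeep of mitochondrial DNA, 2 fell and 1 rose (median -0.18), smaller shares than among all transcripts, namely the matrix protease Lonp1 (0.527) and the topoisomerase Top1mt (0.49) downward and the ribonucleotide reductase subunit Rrm2b (1.65-fold) upward. Without the trend or without the filter 1 of the 19 fell and none rose. The mitochondrial RNA polymerase Polrmt (log2 -0.33, adjusted p = 0.159) and Tfb1m (log2 -0.43, adjusted p = 0.318) were not called. On day 1, whose libraries had the fewest reads, 5 of these 19 genes fell, Lonp1 and Polg among them, beside 9.93% of all transcripts. That count was 3 with centring on median ratios (6.82% of all transcripts), 2 with upper-quartile scaling (6.27%), 1 without the trend (2.15%) and 2 without the filter (1.54%).

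Of 15 cofactors and signalling genes, 3 fell and 1 rose (median -0.13). The PGC-1α repressor Mybbp1a (0.554, limma adjusted p = 0.00261), the acetyltransferase Kat2a (0.594, adjusted p = 0.0032) and the AMPK subunit Prkaa1 (0.762, adjusted p = 0.0358) fell, and the other AMPK catalytic subunit, Prkaa2, rose 9.47-fold (adjusted p = 0.0115). Without the filter 1 of the 15 fell and none rose, beside 5.23% and 3.77% of all transcripts. The call of Prkaa1 was lost with either scaling, without the trend and without the filter. Among 9 tested partner transcription factors 2 fell and 2 rose (median -0.05). Pparg fell to 0.261 (adjusted p = 0.000737) and Gabpb2, a regulatory GABP subunit, to 0.516 (adjusted p = 0.0116), while the thyroid hormone receptor Thra rose 2.20-fold (adjusted p = 0.000659) and Nfe2l1 1.73-fold (adjusted p = 0.00108). Esrrb and Ppara, also on that list, had means below 1 FPKM. Without the filter, which lets them in, 3 of 11 rose (Esrrb as well) and 1 fell, and Gabpb2 was not called.

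Among 15 fatty acid and PPAR target genes 4 were called higher, Ucp3 among them, and 1 lower (median 0.26). The fatty acid transporter Cd36 rose 21.2-fold (limma adjusted p = 0.000214), the uncoupling protein Ucp2 7.48-fold (adjusted p = 6.096e-05) and the oxidation enzyme Hadha 1.27-fold (adjusted p = 0.0452), and the lipid droplet protein Plin2 fell to 0.654 (adjusted p = 0.00248). Ucp3 was called too (limma adjusted p = 0.04995), but it was listed at 0 on day 0 in both siRNAs and no fold is given. It passed the filter through later libraries only. Its call was lost with either scaling, with a pseudocount of 5, without the trend and without the filter, so it is not read as a rise. Of 10 genes for mitochondrial dynamics and mitophagy, Pink1, the kinase that marks damaged mitochondria, rose 3.99-fold (adjusted p = 0.000262) and the fission factor Mff 1.44-fold (adjusted p = 0.0075), and none fell (median -0.03). Without the trend 2 of the fatty acid genes and 1 of the dynamics genes rose, beside 8.57% of all transcripts.

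**Figure D4:**
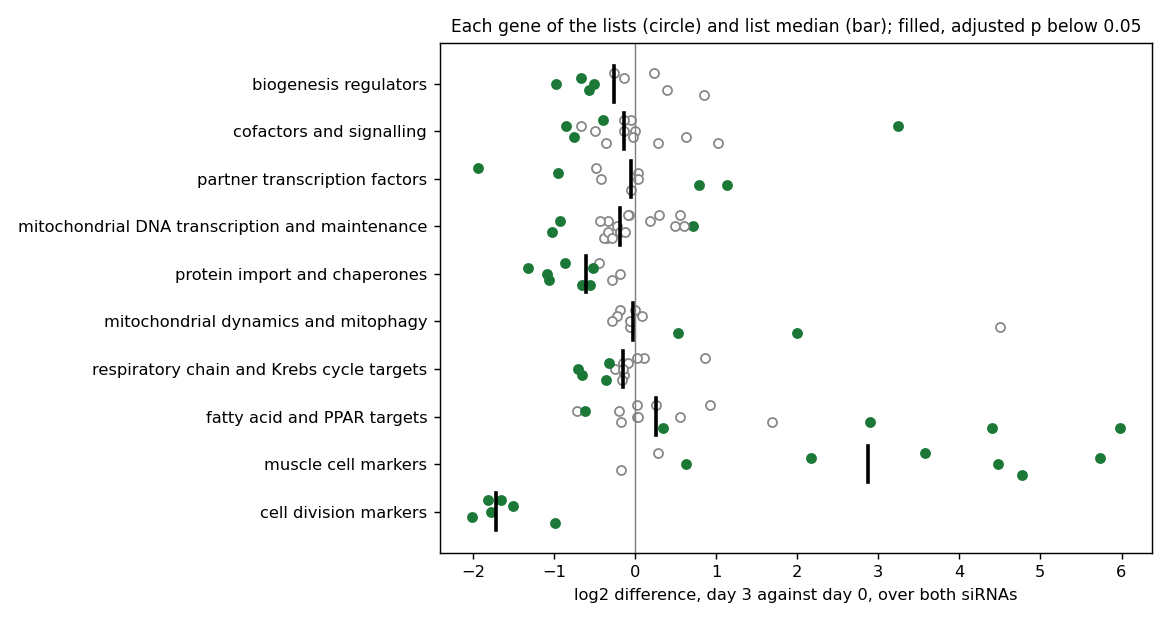
Difference between day 3 and day 0 on the log2 scale (horizontal axis) for each tested gene of 10 lists (rows), filled where the limma adjusted p was below 0.05, with a bar at the list median. Import and chaperone genes lie around -0.60, muscle cell markers around 2.87 and cell division markers around -1.71.

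The siRNA difference over the 4 days was called for no gene of any of these lists, beside 0.0629% of all tested transcripts (9 of 14312). With so small a share, a count of 0 in short lists is not read as a result about them. Among the genes for mitochondria the mitophagy receptor Bnip3 came first by p (log2 -0.69, limma adjusted p = 0.29), which was at 433.5, 498.8, 284.2 and 359.4 FPKM in siCtrl and at 275.1, 190.5, 246.0 and 255.2 FPKM in siKlf5 on days 0 to 3. It was thus lower in siKlf5 on every day, and the libraries of the 2 siRNAs did not overlap. Bnip3 was picked for its p, and no share of all transcripts without such overlap stands beside this. Ucp3 was listed at 0, 4.16, 10.4 and 18.4 FPKM in siCtrl and at 0, 0, 0 and 2.06 FPKM in siKlf5 (adjusted p = 0.45). Among the muscle markers Myog had the smallest p (log2 -0.46, adjusted p = 0.228). The cell division markers were all 6 on the higher side in siKlf5 (median 0.24, beside 0.01 for all tested transcripts), with none called and a smallest limma adjusted p of 0.4003. The share of all transcripts on the higher side was not counted.

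Finally, the transcripts whose FPKM ran most alike to each regulator over the 8 libraries were listed by Pearson correlation among 11590 others with a mean of at least 10 (11591 for Ppargc1a and Esrrg), as a description. For Pprc1 they were Rad51ap1 (r = 0.993), Tbc1d31 (0.992) and Trap1 (0.989). For Tfam they were Cdc7 (r = 0.994), Impdh2 (0.988) and Rad54b (0.986), for Nrf1 Odf2l (0.988), Fkbp3 (0.981) and Supt20 (0.980), and for Ppard Yap1 (0.969), Eftud1 (0.967) and Cacul1 (0.966). Those of Esrra were Glrx5 (0.983), Mbd3 (0.980) and Rps25 (0.974), those of Gabpa Morc4 (0.985), Gdnf (0.975) and Med19 (0.961), and those of Tfb2m Rprd1a (0.979), Gsdmd (0.973) and Nfs1 (0.972). Ppargc1a ran most alike to Iscu (0.983), Lenep (0.963) and Skp1a (0.963), and Ppargc1b to Exosc5 (0.931), Insig1 (0.900) and Nabp1 (0.867), the lowest of these values. The course of Esrrg, on at most 22 reads, was nearest to those of Mnt (0.960), Pde7a (0.959) and Ckmt2 (0.955). These are the best of many transcripts over only 8 libraries, which fall in pairs on 4 days and differ in depth, and no test was made of them.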

How the data were processed

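RNA was measured in 8 libraries of C2C12 cells, 1 for each siRNA and day. Paired-end reads from poly(A)-selected RNA were mapped by the authors to mm9 (STAR, default settings). HOMER then counted exonic reads of RefSeq transcripts regardless of strand, capped at 3 per position, and reduced each gene to 1 transcript. The FPKM values deposited by the authors carry a matrix total of 10000000 per library. Reads from antisense genes cannot be told apart. The authors' notes also name DESeq2, whose counts were not used here. The deposited table also holds 8 columns of log2 values, 1 of which names no day, and these were not used.

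From the FPKM values, limma 3.58.1 (R 4.3.3) was fitted with trend to log2(FPKM + 0.1) for 14312 transcripts (mean FPKM 1 or more), with terms for siRNA and day, and p-values were adjusted by Benjamini-Hochberg over all of them at a threshold of 0.05. The fold changes are on the log2(FPKM + 0.1) scale and understate those of low genes. Reads were recovered from FPKM times exon length, and every low value checked (4502 to 5158 in a library) was whole to within 0.1 reads. Reads cluster in units of 6 (471 transcripts with 6 and 64 with 5 reads in siCtrl on day 3), so counting intervals at 95% used reads divided by 6. Promoters are from RefSeq on GRCm38.p6, and coordinates of genes are those of the deposited table. Python 3.11.15, pandas 2.3.3, scipy 1.17.1 and matplotlib 3.10.9 were used.

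The regulators and the lists were chosen with earlier results of these data known. Named were the 10 regulators, Klf5, and of each list up to 4 genes with the smallest p for the siRNA or for day 3 against day 0, and all called genes where 5 or fewer were called. Other genes (Myod1, Myl4, Myh4, Sdha, Ndufs1, Polrmt, Tfb1m, Polg, Esrrb, Ppara, and the adipocyte markers Adipoq, Plin1 and Lep) were chosen after their values were seen. Other pseudocounts, filters, scalings, folds and fits were tried, as were fits without each day.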

Additional observations from a re-analysis of the deposited data

How the results depend on the processing

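No regulator was called for the siRNA difference under any of the fits tried, and the called day changes of the regulators kept their direction in the 7 other fits run for them. Of those fits, the ones without the trend, without the filter or with a stricter filter change only the p and not the estimate. Direction could thus have moved only with the scalings and pseudocounts, and no day was left out for the day changes. The 9 transcripts called for the siRNA became 0 without the trend, 0 without the filter, 1 with no day block and 0 in each of the fits that left out 1 day (0 to 0). Klf5 was then not called either, with a log2 difference of -2.16 to -1.69 and adjusted p between 0.296 and 0.693 in the fits without 1 day, and its sign-flip permutation test over the 4 days reached p = 0.125, the smallest it can give. Small siRNA differences changed sign when a day was left out. Over the fits without 1 day, that of Tfb2m ran from -0.1603 to 0.1155 (above 0 without day 0 or day 3), that of Ppard from -0.0971 to 0.0949 (below 0 without day 0 or day 3) and that of Nrf1 from -0.2755 to 0.0607 (above 0 without day 2). Gabpa on day 2 against day 0 turned to 0.0218 with median-ratio centring, and the slope of Tfam to 0.009 with upper-quartile scaling. Regulators called on day 1 numbered 0 without trend and 1 without the filter or with either scaling. On day 2 they numbered 0 without trend (without the filter Pprc1 was lost and Tfam called, adjusted p = 0.0334). On day 3 they numbered 2 under each of these 4 settings, Pprc1 and Tfam without trend or filter (Nrf1 adjusted p = 0.0831 and 0.15) and Pprc1 and Nrf1 with either scaling (Tfam adjusted p = 0.0649 and 0.0552), so that Pprc1 alone was called under all settings. Without the trend and without the filter, all transcripts called numbered 667 and 653 for day 1, 1374 and 1206 for day 2, and 2593 and 2161 for day 3. With median-ratio centring and upper-quartile scaling, 6.82% and 6.27% of all transcripts were called lower on day 1, and 12.8% and 13.5% on day 3.

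On single days the regulators past 1.5-fold between siRNAs were 1 each on days 0, 1 and 2 once Esrrg was let in by dropping the filter, and on day 3 were 1 with a pseudocount of 1 or upper-quartile scaling and 0 past 2-fold. A 2-fold limit against day 0 left 1 regulator on day 1 of siCtrl, 0 on its day 2, 2 on its day 3 (Ppargc1a higher and Nrf1 lower), and 0 in siKlf5. No share of all transcripts past 2-fold stands beside these counts, so they are not read as a result about the regulators. Without the filter Esrrg was also past 1.5-fold between siRNAs on day 3 (lower in siKlf5) and against day 0 on days 2 and 3 in siCtrl (2 regulators on day 2) and on days 1, 2 and 3 in siKlf5, values that rest on at most 22 reads and, where a library is at 0, on the pseudocount, and either scaling left 1 on day 1 in siKlf5. On single reads instead of units of 6, counting intervals excluded 0 for 4, 5, 5 and 4 of the 9 tested regulators on days 0 to 3, beside 46.7%, 51.1%, 52.6% and 51.6% of all tested transcripts, and for Esrrg, not among the 9, on days 1 and 2.

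The alternative with the deposited log2 columns was not run, since 1 column names no day. The siRNA comparison was paired by day, through the day block of the fit and the sign-flip test over 4 days. No paired analysis was possible by replicate number because each condition has 1 library. Depth limits Ppargc1a and Esrrg most.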
